A study of Mus musculus with 2 samples.

Results

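The small proline-rich protein genes are described here in organoids of normal mouse urothelium through 5 genes chosen by symbol, Sprr1a, Sprr1b, Sprr2d, Sprr2f and Sprr3, out of 15 Sprr genes and 31053 genes in the count matrices. Both libraries came from WT C57BL/6 mice of 8 to 10 weeks, and each condition had 1 single-cell library (10x Genomics Chromium 3′ chemistry, version 3). The proliferative organoids, NMU-O-P (library P), grew in Matrigel in complete medium with WNT3A, RSPO1, EGF, Noggin and the TGF-β receptor inhibitor LY2157299. The differentiated organoids, NMU-O-D (library D), were first grown in complete medium, by the methods of the study, and then kept in medium without these 5 factors. Both are cultured epithelium, grown from low-passage cells that had not been sorted for EpCAM, and neither has the bladder wall around it. With 1 library per condition no test was possible, so every interval below is an exact 95% interval for counting error only and does not cover variation between cultures.

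Small proline-rich proteins are short, soluble proteins built from repeats rich in proline, with glutamines and lysines near their ends. Transglutaminases cross-link them to involucrin, loricrin and other proteins into the cornified envelope, the tough layer under the membrane of terminally differentiated cells of skin and other stratified squamous epithelia. The genes lie side by side in the epidermal differentiation complex. Their transcripts are known to rise in epithelia under stress, injury or squamous change, and urothelium does not normally cornify.

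The proline repeats can be read in the coding sequence. Of the codons of Sprr2d 41.2% code for proline, with 39.5% in Sprr2f, 31.9% in Sprr1a, 30.7% in Sprr1b and 20.6% in Sprr3, and the coding sequence of each lies in 1 exon of a gene with 2 exons (GENCODE M21 transcripts, GRCm38). The 150 coding bases that hold most proline codons are shown for 4 members, since these repeats give the family its name, with the proline codons in capitals.
Sprr1a coding bases 64 to 213 (chr3:92484480-92484629, minus strand): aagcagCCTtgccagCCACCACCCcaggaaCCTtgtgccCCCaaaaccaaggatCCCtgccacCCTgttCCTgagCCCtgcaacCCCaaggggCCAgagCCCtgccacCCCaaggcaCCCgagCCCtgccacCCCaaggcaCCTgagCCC
Sprr1b coding bases 133 to 282 (chr3:92437286-92437435, minus strand): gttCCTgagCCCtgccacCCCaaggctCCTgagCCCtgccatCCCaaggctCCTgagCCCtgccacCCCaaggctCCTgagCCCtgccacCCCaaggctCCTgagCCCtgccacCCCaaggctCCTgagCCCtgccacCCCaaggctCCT
Sprr2d coding bases 31 to 180 (chr3:92340284-92340433, plus strand): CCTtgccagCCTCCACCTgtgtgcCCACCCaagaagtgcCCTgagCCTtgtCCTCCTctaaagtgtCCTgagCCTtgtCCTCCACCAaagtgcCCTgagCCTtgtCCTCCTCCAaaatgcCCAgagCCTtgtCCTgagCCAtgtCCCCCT
Sprr3 coding bases 22 to 171 (chr3:92457365-92457514, minus strand): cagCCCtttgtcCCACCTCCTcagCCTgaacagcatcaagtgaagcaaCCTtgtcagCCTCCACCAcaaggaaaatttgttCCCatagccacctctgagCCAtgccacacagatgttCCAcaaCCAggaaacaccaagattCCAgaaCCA
Proline codons number 26 of the 50 codons shown for Sprr2d, 19 in Sprr1a and in Sprr1b, and 15 in Sprr3.

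Close paralogs can share reads, so the sequence near the 3′ end, where this chemistry counts transcripts, was compared over windows of 56 bases, the length of the cDNA read. None of the 445 windows in the last 500 bases of Sprr1a, Sprr1b, Sprr2d, Sprr2f or Sprr3 occurred without a mismatch in a transcript of another gene. The near-identical copies lie elsewhere in the family. All 445 windows of Sprr2a1 and all 890 of Sprr2a2 (2 transcripts) occurred in another gene, as did 59.9% of those of Sprr2a3, so the values of these 3 genes are uncertain one by one, also because the annotated spans of Sprr2a1 and Sprr2a2 overlap. Over the whole coding sequence Sprr1a and Sprr1b were 79.0% identical and Sprr2d and Sprr2f 82.6%, whereas Sprr3 and Sprr1a were 51.2% identical. The first 90 coding bases of 4 Sprr2 genes are shown to let these copies be told apart, with bases that differ from Sprr2d at the same position in capitals.
Sprr2d coding bases 1 to 90 (chr3:92340254-92340343, plus strand): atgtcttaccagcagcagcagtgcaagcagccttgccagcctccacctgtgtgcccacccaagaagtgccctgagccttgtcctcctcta
Sprr2f coding bases 1 to 90 (chr3:92365896-92365985, plus strand): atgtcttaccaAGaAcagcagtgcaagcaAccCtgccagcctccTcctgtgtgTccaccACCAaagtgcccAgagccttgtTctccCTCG
Sprr2h coding bases 1 to 90 (chr3:92386632-92386721, plus strand): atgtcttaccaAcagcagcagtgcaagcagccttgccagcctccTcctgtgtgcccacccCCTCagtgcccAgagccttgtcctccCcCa
Sprr2a3 coding bases 1 to 90 (chr3:92288588-92288677, plus strand): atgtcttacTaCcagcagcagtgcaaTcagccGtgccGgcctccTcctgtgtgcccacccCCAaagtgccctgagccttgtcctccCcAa
Sprr2f differed from Sprr2d at 17 of these 90 bases, Sprr2a3 at 11 and Sprr2h at 9. A read with sequencing errors or from an unannotated copy could still be assigned to the wrong gene, which was not tested.

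P held 8194 barcodes and D 6975, of which 6818 and 4896 were kept because over 800 genes were detected and mitochondrial (mt-) genes took no more than 12% of UMIs. A UMI (unique molecular identifier) marks 1 captured transcript, and kept cells held 26681469 UMIs in P and 20305621 in D, or 3405.5 and 3227.5 in the median cell. The libraries shared 10 barcodes, 6 of them among kept cells, which held 7 Sprr1a UMIs in P and 3 in D and none of the other members. Ribosomal protein genes took 37.5% of the UMIs in P and 21.4% in D, and the median gene (of 8939 with 100 or more UMIs in each of P and D) was 0.42 higher in D on the log2 scale. A ratio is therefore given as such and again relative to this shift. The labels fit the urothelial markers in part. The 5 uroplakin genes, which make the plaques of the luminal surface, summed to 20.5 CPM in P and 1245 in D. CPM are the UMIs of a gene scaled to 1000000 UMIs in the library or group of cells. The 12 proliferation genes summed to 263 and 27.7, while Krt20 of umbrella cells was near 0 in both (8 and 3 UMIs). The 7 basal markers summed to 6021 and 8292, mostly from Krt5 (3534 and 3954) and Krt14 (1783 and 3736). Trp63, Itga6 and Col17a1 were lower in D (log2 ratios of −0.94, −0.20 and −0.19), and Itgb4 and Cd44 higher (0.20 and 0.11). The median log2 ratio of the basal markers was 0.11, or −0.31 relative to the median gene. Of other cell types, the 6 fibroblast markers summed to 1.99 CPM in P and 62.5 in D (Dcn alone had 40 and 1234 UMIs, Col1a1 0 and 10, Col3a1 0 and 19, and Col1a2 none), the 6 leukocyte markers to 21.4 and 26.7 (Cd68 had 545 and 132 UMIs and Laptm5 7 and 400, in opposite directions, Ptprc 1 and 2, and Cd3e none), and the 4 endothelial markers to 5.17 and 3.30 (none from Cdh5 and Kdr), and their part in the member values was not tested.

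Between conditions the members did not move as 1 group. Sprr1a was abundant in both libraries, Sprr2f and Sprr2d were found almost entirely in proliferative organoids, Sprr3 was rare in both, and Sprr1b was not detected. At least 2-fold higher in P were 2 of the 5 members, Sprr2d and Sprr2f, where 4.73% of the 10719 genes counted 100 times or more over P and D passed that limit, and none was at least 2-fold higher in D, where 13.5% of all genes passed it. Relative to the median gene Sprr3 passed the limit too, and 5 genes of the family in place of 4. The share of all genes that passed the limit on that scale was not counted, so this count has no background. Sprr1b had no UMI, so 4 members could be compared.

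Sprr1a (ENSMUSG00000050359, chr3:92483952-92485895, minus strand, GRCm38), which encodes an early component of the cornified envelope and is also known from injured neurons and strained heart muscle, was counted with 18416 UMIs in P and with 16367 in D. Its level was 690.2 CPM in P (interval 680.3 to 700.3) and 806 in D (794 to 818). The log2 ratio of D over P was 0.22 (0.19 to 0.25), but relative to the median gene it was −0.20, so the direction of Sprr1a turned with the scaling. It also turned, to −0.11, when mitochondrial and ribosomal protein genes were left out of the totals. More cells of D than of P held the transcript: 36.1% of kept cells in P and 58.9% in D, and 29.9% (28.8 to 31.0) against 49.4% (47.9 to 50.9) once every cell was thinned to 2100 UMIs, which left 6638 cells of P and 4417 of D.

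Sprr2f (ENSMUSG00000050635, chr3:92365187-92366442, plus strand), a member known for its response to oestrogen in the uterus, was counted with 2573 UMIs in P and with 57 in D, or 96.4 CPM (92.7 to 100.2) and 2.81 (2.13 to 3.64). It was 34.4-fold higher in P (26.4 to 45.5), a log2 ratio of −5.10 and of −5.52 relative to the median gene. The UMIs were in 242 of the 6818 cells of P (3.55%) and in 15 of the 4896 cells of D (0.306%), and after thinning in 2.56% (2.194 to 2.97) and 0.113% (0.0368 to 0.264). In D a single cell held 27 of the 57 UMIs, and without the cell with most Sprr2f UMIs in each library the log2 ratio was −5.96.

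Sprr2d (ENSMUSG00000042212, chr3:92339140-92340873, plus strand), a neighbour of Sprr2f in the locus, had 146 UMIs in 52 cells of P and 6 UMIs in 4 cells of D. The level was 5.47 CPM in P, with an interval of 4.62 to 6.44, and 0.295 in D (0.108 to 0.643), which was 18.5-fold higher in P (8.31 to 51.3), or a log2 ratio of −4.21. The cell of D with 27 Sprr2f UMIs was also the one with most Sprr2d, 3 of the 6 UMIs. After thinning Sprr2d was in 0.377% of cells of P (0.244 to 0.555) and 0.0679% of D (0.0140 to 0.198). With a looser cell filter the log2 ratio of Sprr2d was −2.99, and the barcodes left out of D held 8 further UMIs of it.

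Sprr3 (ENSMUSG00000045539, chr3:92456502-92458720, minus strand), best known from the lining of the oesophagus, had 111 UMIs in 37 cells of P and 55 UMIs in 38 cells of D. This gave 4.16 CPM in P, with an interval of 3.42 to 5.01, and 2.71 in D (2.04 to 3.53), a log2 ratio of −0.62 (−1.11 to −0.14) and of −1.04 relative to the median gene. The share of thinned cells with Sprr3 was 0.346% in P (0.220 to 0.519) and 0.408% in D (0.242 to 0.643), and these intervals overlap. The mean over thinned cells with Sprr3 was 1.83 UMIs in P and 1.22 in D, and the highest cell held 19 UMIs in P and 4 in D before thinning.

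Sprr1b (ENSMUSG00000048455, chr3:92436809-92438789, minus strand), the closest relative of Sprr1a, is a marker of squamous change in airway epithelium. It had 0 UMIs in the kept cells of both libraries and also in the barcodes left out, which at a limit of 3 UMIs for a count of 0 allows up to 0.112 CPM in P and 0.148 in D, and a share of thinned cells with a UMI of up to 0.0452% and 0.0679%. The upper ends of the exact 95% intervals were 0.138 and 0.182 CPM, and 0.0556% and 0.0835% of thinned cells. None of its windows was shared with another gene in the sequence compared above.

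**Figure D1:**
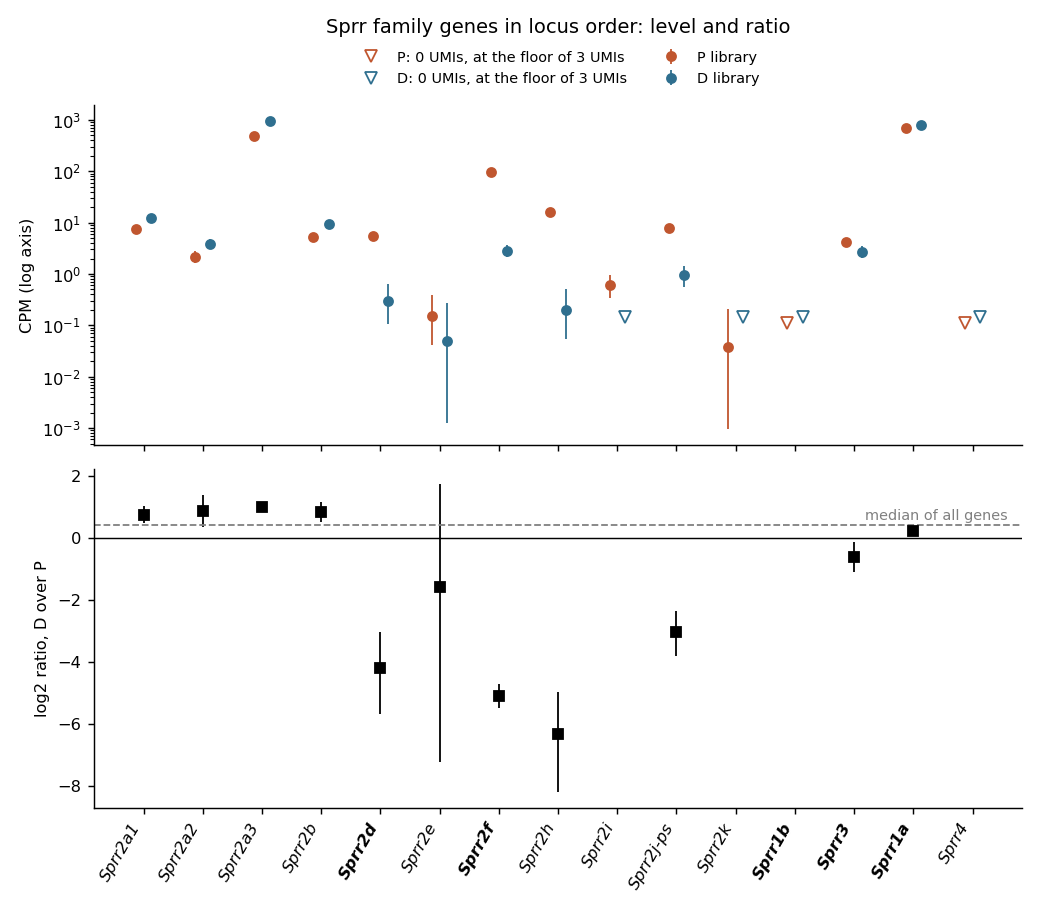
Level of each Sprr gene in CPM on a log axis (upper panel; circles, with exact Poisson intervals; triangles, 0 UMIs drawn at the limit of 3 UMIs) and log2 ratio of D over P (lower panel; squares with exact intervals) in the order of the genes along the locus, with the 5 members in bold and the median ratio of all genes as a dashed line. Sprr2a1 to Sprr2b lie above 0, whereas Sprr2d, Sprr2f, Sprr2h and Sprr2j-ps lie between −3.04 and −6.34.

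In the locus, the direction changed between neighbours. The 4 genes at 1 end, Sprr2a1, Sprr2a2, Sprr2a3 and Sprr2b, were higher in D by 1.66-fold to 1.97-fold, and with 1.97-fold (1.92 to 2.01) for Sprr2a3 none reached the 2-fold limit. Sprr2a3 was the only other abundant member of the family, with 12828 UMIs in P and 19217 in D. Next along the chromosome, Sprr2d, Sprr2f, Sprr2h and Sprr2j-ps were all higher in P, with the rare Sprr2e and Sprr2i between them. P held 426 UMIs of Sprr2h and D held 4, which was 81.1-fold higher in P (31.4 to 299), and Sprr2j-ps had 206 and 19 and was 8.25-fold higher (5.15 to 14.0). Sprr2i had 16 UMIs in P and none in D, which makes it at least 4.06-fold higher in P against a limit of 3 UMIs in D. Sprr2e (4 and 1 UMIs) and Sprr2k (1 and 0) were too rare for a ratio to be read, and Sprr4 had no UMI. In all, 10 of the 15 genes had 100 UMIs or more. Of these 10, 4 were at least 2-fold higher in P and 0 in D, beside 4.73% and 13.5% of all genes tested. Their median log2 ratio was −0.20 beside 0.41 for all genes tested. A UMI marks 1 end of 1 transcript, so levels were not divided by transcript length. On that count Sprr1a made up 52.4% of the family's UMIs in P and 45.2% in D, Sprr2a3 36.5% and 53.0%, and Sprr2f 7.33% and 0.157%. Of the windows compared above, 59.9% of those of Sprr2a3 occurred in another gene, and 0% of those of Sprr1a and Sprr2f. How reads that fit more than 1 gene were counted was not examined, so these shares of the family are uncertain.

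The promoters of the members are shown because the neighbours Sprr2d and Sprr2f moved together and apart from Sprr1a and Sprr3. RefSeq (GRCm38.p6) gave a start site for all 5 members and for 14 of the 15 Sprr genes. Each sequence below is the 250 bases before the start, 5′ to 3′ on the gene's strand, with 3 motifs in capitals: the AP-1 site TGANTCA, which binds Fos and Jun dimers and is its own reverse complement, the TATA box TATAAA, and the octamer ATGCAAAT of POU factors, on both strands.
Sprr1a promoter (chr3:92485882-92486131, minus strand): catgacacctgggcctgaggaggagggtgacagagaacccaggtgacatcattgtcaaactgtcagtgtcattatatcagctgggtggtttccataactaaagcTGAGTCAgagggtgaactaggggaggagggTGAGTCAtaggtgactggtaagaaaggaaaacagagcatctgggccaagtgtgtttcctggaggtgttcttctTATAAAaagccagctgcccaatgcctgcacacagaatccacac
Sprr1b promoter (chr3:92438780-92439029, minus strand): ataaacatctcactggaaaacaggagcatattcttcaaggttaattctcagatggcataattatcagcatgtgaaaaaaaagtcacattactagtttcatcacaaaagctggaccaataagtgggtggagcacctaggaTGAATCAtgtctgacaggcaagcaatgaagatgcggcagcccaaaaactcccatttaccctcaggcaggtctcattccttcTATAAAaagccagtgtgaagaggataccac
Sprr2d promoter (chr3:92338890-92339139, plus strand): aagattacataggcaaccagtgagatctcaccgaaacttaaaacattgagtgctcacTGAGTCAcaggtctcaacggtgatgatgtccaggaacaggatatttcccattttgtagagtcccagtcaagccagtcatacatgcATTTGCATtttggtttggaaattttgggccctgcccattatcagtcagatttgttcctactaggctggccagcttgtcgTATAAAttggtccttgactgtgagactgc
Sprr2f promoter (chr3:92364937-92365186, plus strand): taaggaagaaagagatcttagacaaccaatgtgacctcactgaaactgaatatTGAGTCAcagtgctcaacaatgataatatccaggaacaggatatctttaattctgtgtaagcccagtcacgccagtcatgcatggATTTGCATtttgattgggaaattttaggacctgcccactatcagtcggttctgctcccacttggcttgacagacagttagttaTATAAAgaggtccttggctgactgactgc
Sprr3 promoter (chr3:92458721-92458970, minus strand): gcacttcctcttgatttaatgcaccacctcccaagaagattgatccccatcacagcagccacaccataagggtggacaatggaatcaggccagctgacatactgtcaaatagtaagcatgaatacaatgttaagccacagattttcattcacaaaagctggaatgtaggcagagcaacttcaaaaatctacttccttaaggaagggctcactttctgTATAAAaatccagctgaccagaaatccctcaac
The TATA box was found in all 5 and in 10 of the 14 Sprr promoters, beside 12.97% of the 27025 genes in the RefSeq table. An AP-1 site was found in 9 of the 14, at 2 places in Sprr1a (116 and 146 bases before the start, counted from its first base) and once in Sprr1b, Sprr2d and Sprr2f, beside 6.87% of all genes. No AP-1 match was found in this window of Sprr3. The octamer, on the opposite strand, was found in 7 of the 14, Sprr2d and Sprr2f among them at 108 and 112 bases before the start, beside 1.61% of all genes. These 7 were Sprr2b, Sprr2d, Sprr2e, Sprr2f, Sprr2h, Sprr2i and Sprr2k. Their promoters resemble each other, from 59.1% identity for Sprr2f and Sprr2h to 89.3% for Sprr2d and Sprr2e. Matches in such copies are not independent, so for all 3 motifs the counts cannot be weighed against the share of all genes. Sprr2b, which has all 3 motifs, was 1.76-fold higher in D, a log2 ratio of 0.82, or 0.39 relative to the median gene. Of its windows near the 3′ end 8.09% occurred in another gene. Whether any of the motifs has a part in the directions was not tested. The promoters of Sprr2d and Sprr2f were 69.7% identical in a global alignment, those of Sprr2d and Sprr1a 45.2%. A match describes these letters only, and no binding was measured here.

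Within a library the transcripts were unevenly spread over cells. In thinned cells of P, Sprr1a had a median of 0 UMIs, a 90th percentile of 4 and a highest value of 33, and the 10% of cells with most Sprr1a held 71.7% of its UMIs. In D the median was 0, the 90th percentile 4 and the highest value 28, and the top 10% held 53.3%. More cells had Sprr1a in D, whereas cells with 10 UMIs or more were 3.16% of P (2.76 to 3.61) and 2.20% of D (1.78 to 2.67), and cells with 5 or more were 8.57% and 8.69%, with overlapping intervals. The ratio of variance to mean over cells was 7.71 for Sprr1a in P, where the 71 genes with a mean within 25% of it had a median of 1.22 and 1 lay above it, and 4.76 in D, where 75 such genes had a median of 1.10 and 0 lay above it.

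Sprr2f was concentrated in few cells. Of the 1060 thinned UMIs of P, 87.1% were in the top 66 cells, 1% of the library, and the highest cell held 58. Its ratio of variance to mean was 22.8, above each of the 725 genes of similar mean, which had a median of 1.02 and a maximum of 3.76. Cells with at least 10 UMIs numbered 30 in P and 2 in D. Sprr2d in P was in 25 thinned cells, 16 of them with 1 UMI, and Sprr3 in 23, 18 of them with 1 UMI. In D the thinned counts were 3 cells for Sprr2d, 5 for Sprr2f and 18 for Sprr3.

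**Figure D2:**
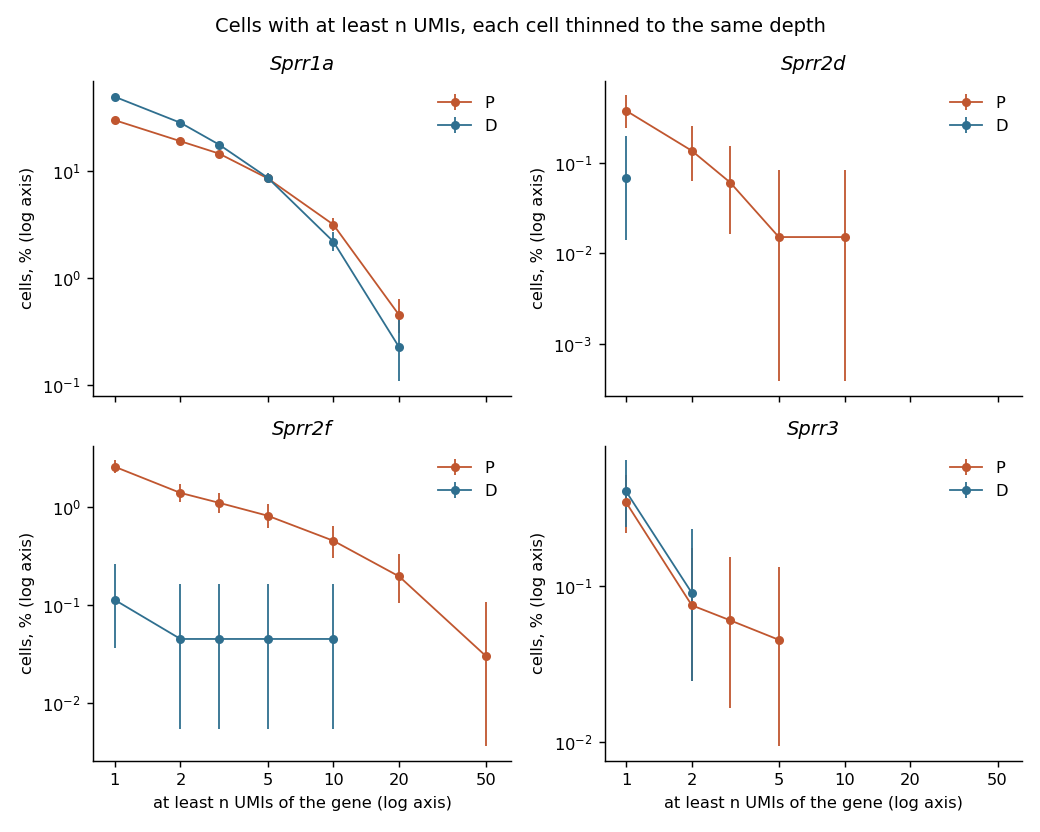
Percent of cells (log axis) with at least n UMIs (log axis) of Sprr1a, Sprr2d, Sprr2f and Sprr3, each cell thinned to 2100 UMIs, with exact binomial intervals; P has 6638 cells and D 4417, and points with no cell are not drawn. For Sprr1a the curve of D starts above that of P and lies below it from 10 UMIs, whereas for Sprr2f the curve of P lies above that of D at every n.

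In P the rarer members were found mostly in cells that also held Sprr1a. There, 132 of the 170 thinned cells with Sprr2f (77.6%) had Sprr1a, as did 21 of the 23 with Sprr3 and 17 of the 25 with Sprr2d, beside 29.9% of all cells. Most UMIs of these members lay in 1 cluster of P (cluster 1, described below), where 64.0% of thinned cells had Sprr1a. With finer clusters, the share was 88.2% in the cluster with most of them. The share for Sprr2f lay between these 2 values, so it was not above that of all similar cells. Sprr2f was in 10 of the 23 cells with Sprr3 and in 8 of the 25 with Sprr2d, beside 2.56% of all cells and 5.78% of those of cluster 1. In D, 16 of the 18 cells with Sprr3 had Sprr1a, beside 49.4% of all cells, while Sprr1a was in 2 of the 5 with Sprr2f. None of the members was detected in 69.4% of thinned cells of P and 50.4% of D, and 2 members were detected together in 141 cells of P and 18 of D, 3 in 14 and 1, and 4 in 1 cell of P.

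Cells were grouped into clusters in each library from 1992 variable genes without any Sprr gene, so that the members took no part in making the groups. In P, cluster 1 (2542 cells, 37.3%) was led by Cnfn (cornifelin, of the cornified envelope), Rptn (repetin, a filaggrin-like protein) and Psca (a surface protein of intermediate and luminal urothelium), with 9 of 9 intermediate genes, 11 of 13 cornified envelope genes and 11 of 14 early response genes above the other cells, beside 39.2% of all 9486 genes with 100 UMIs or more in P, and 1386 CPM of Sprr1a (1366 to 1407). The other clusters of P had 57.0 to 123 CPM. Cluster 1 held 94.9% of the Sprr1a, 98.2% of the Sprr2f, 96.6% of the Sprr2d and 99.1% of the Sprr3 UMIs of P. Clusters 0 (2552 cells, led by Ctla2a, Nbl1 and Scnn1b), 2 (1369 cells, led by Fmo2, Mmp7 and Slc7a11) and 3 (355 cells, led by the cell cycle genes Ccna2, Hmmr and Nusap1) shared the rest.

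In D the highest cluster was cluster 2 (710 cells, 14.5%), led by Ubd, Ankrd1 and Ifit1bl1, with 5 of 5 uroplakin, 8 of 9 intermediate, 8 of 9 cornified envelope and 1 of 14 early response genes above the other cells, beside 41.7% of all 9398 genes with 100 UMIs or more in D. Its level of Sprr1a was 2303 CPM (2253 to 2354). That was above the highest cluster of P, but with finer clusters (resolution 0.4 in place of 0.2) the order of the libraries turned, with 2417 in the highest cluster of P (1285 cells) and 2241 in that of D (682 cells). Sprr1a was also well above 0 in the other cells of D, with 532 CPM in cluster 0 (2869 cells, led by Reg1, Krt1 and Agr2) and 361 in cluster 1 (1317 cells, led by Acta2, Cav1 and Htra1, with 6 of 7 basal genes above the other cells beside 60.3% of all genes, and 230.5 CPM of the fibroblast markers beside 19.5 in the other cells). Both lay above the 57.0 to 123 CPM of clusters 0, 2 and 3 of P, and with finer clusters the others ranged from 29.3 to 309 in P and from 316 to 866 in D. Cluster 2, with 14.5% of the cells of D, held 49.8% of the Sprr1a UMIs, and cluster 1, with 37.3% of the cells of P, held 94.9%. Cluster 2 of D also held 48 of the 55 Sprr3 UMIs, 50 of the 57 Sprr2f UMIs and 5 of the 6 Sprr2d UMIs. Of these Sprr2f UMIs 27 and 17 came from 2 cells, and the cell with 27 also held 3 of the Sprr2d UMIs. Sprr3 reached 13.6 CPM in cluster 2 of D (10.0 to 18.0) beside 8.73 (7.17 to 10.5) in cluster 1 of P. That order also turned with finer clusters, to 14.3 (10.4 to 19.0) in D and 17.1 (14.0 to 20.6) in P. Sprr2f was 14.1 CPM (10.5 to 18.6) in cluster 2 of D, chiefly from those 2 cells, and 200.5 (192.7 to 208) in cluster 1 of P.

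**Figure D3:**
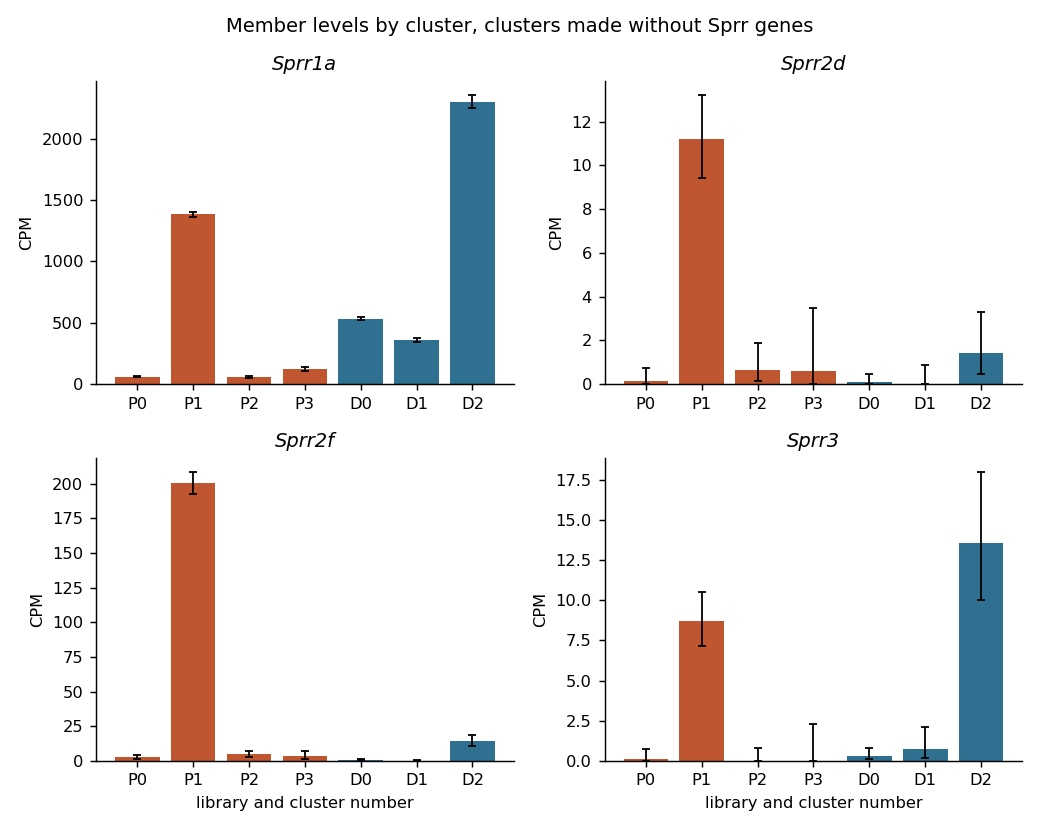
CPM of Sprr1a, Sprr2d, Sprr2f and Sprr3 in clusters 0 to 3 of P and 0 to 2 of D, with exact Poisson intervals, from 0. In each panel 1 cluster of each library, P1 and D2, stands above the others, and Sprr1a alone is well above 0 in D0 and D1.

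Droplets can carry free transcripts, so a share of cells with a UMI was read against the cluster where it was lowest. The share of thinned cells with Sprr1a was 64.0% in cluster 1 of P (median 4237 UMIs before thinning) and 8.80% in cluster 3 (median 4013), and 83.4% in cluster 2 of D (median 4172.5) against 36.4% in cluster 1 (median 2676). No cluster could be taken to lack Sprr1a, so how much of the lower shares was free transcript was not tested. For Sprr2f the share was 5.78% in cluster 1 of P and 0.495% in cluster 0 (median 2838), and 0.577% (0.157 to 1.47) in cluster 2 of D. The interval of that cluster of D includes the share in the lowest cluster of P. That cluster of P is from another library, so its share sets no limit for free transcript in D. In D, 5 thinned cells held Sprr2f, 2 of them with 10 or more thinned UMIs.

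Sprr1a and Sprr2f were lower in cycling cells of P than in all other cells together. There, 417 cells had at least 2 of 12 proliferation genes, and in these Sprr1a was 180 CPM beside 731 in the others, a log2 ratio of −2.02 (−2.18 to −1.87), and Sprr2f 5.10 beside 103.7. The others include cells of cluster 1, where both were highest. Cycling cells did not lie below clusters 0 and 2, which had 62.1 and 57.0 CPM of Sprr1a and 2.45 and 4.88 of Sprr2f. D had 17 cycling cells, with 45 Sprr1a UMIs and a log2 ratio of −1.16 (−1.61 to −0.74), too few to read the rarer members. With 1 proliferation gene as the limit, the ratio of Sprr1a was −0.88 in P and 0.00 in D (−0.09 to 0.10), and that of Sprr2d in P was 0.52 (−0.07 to 1.07), so that these depended on the limit. By uroplakins, 303 cells of P and 2849 of D had at least 1 uroplakin UMI, 210 and 668 of them exactly 1. Sprr1a was higher in them in both libraries, by 1.66 (1.61 to 1.72) in P and 1.48 (1.42 to 1.55) in D on the log2 scale. For Sprr3 the ratio was 1.11 (0.18 to 1.92) in P and 0.98 (−0.03 to 2.14) in D. With at least 2 uroplakin UMIs as the limit it was 1.30 (−0.18 to 2.47) and 1.2504 (0.33 to 2.27), and without the cell with most Sprr3 it was 1.42 (0.49 to 2.25) and 1.72 (0.48 to 3.24), so whether an interval included 0 depended on the limit and on 1 cell. For Sprr2d in P the ratio was 2.34, or 1.06 (0.17 to 1.84) without the cell with most of it. Sprr2f had opposite directions, 1.70 in P and −1.34 in D, but the value of D rested on the cell with 27 UMIs, which had 0 uroplakin UMIs. Without it the ratio was 1.98, but 17 of the 27 UMIs then left in uroplakin-positive cells came from 1 other cell, so no direction was read for D. The uroplakin-positive cells were also deeper than the others, with medians of 4376 against 3378 UMIs in P and 3714 against 2696 in D.

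Over single cells, the genes whose pattern was most like that of Sprr1a differed between the libraries. Over 6638 thinned cells of P and 3903 genes, Pearson's r was highest for Psca (0.68), Mal (0.56), which encodes a protein of apical membrane traffic, and Arg1 (0.54), arginase 1, and lowest for Eef1a1 (−0.46), an elongation factor. In D, over 4417 cells and 4896 genes, it was highest for the uroplakin Upk1b (0.34), Akr1b3 (0.33) and the keratin Krt8 (0.31), and lowest for the basal keratin Krt5 (−0.28). Psca and Mal had an r of 0.28 and 0.26 in D, and Krt8 0.22 in P. Arg1 in D and Upk1b in P were in too few cells (under 5%) for a value. Outside the Sprr family, Sprr2f in P was also closest to Psca, Mal and Arg1, with r of 0.28 or less. For Sprr2d and Sprr3 in P no gene outside the family passed 0.15, and in counts this sparse these values were not read. Among the members in P, r with Sprr2f was 0.24 for Sprr1a, 0.20 for Sprr3 and 0.15 for Sprr2d. The cells behind each value share 1 library and its handling.

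In P, 92 thinned cells had at least 2 Sprr2f UMIs, and these were compared with the other 6546 cells. Of the cornified envelope genes, 11 had 100 thinned UMIs or more, and 8 of them had an interval above 0 and none below, beside 7.92% of all 7905 genes with as many UMIs above 0. Cluster 1 held 91 of the 92 cells. Against the other 2433 cells of that cluster, a comparison chosen after seeing the data, the intervals of 6 of 10 such genes lay above 0, beside 6.69% of 4603 genes. Sprr3 was 93.2 CPM in the 92 cells and 1.75 in the other 6546, a log2 ratio of 5.74 (4.77 to 6.68). Sprr2d was 62.1 and 2.55, and Sprr1a 3804 and 536. These rest on 18 and 24 thinned UMIs of Sprr3 and on 12 and 35 of Sprr2d. Leaving out the cell with most of either gene was not tried here. Cornifelin (Cnfn) had a log2 ratio of 5.80 (5.05 to 6.54), Flg (filaggrin) of 2.33 (2.09 to 2.57), Crnn (cornulin) of 1.46 and Ivl (involucrin) of 1.31, while Lor (loricrin) had 1 UMI in them, and its interval of −6.63 to 1.18 included 0. Within cluster 1 the log2 ratio was 4.39 (3.41 to 5.34) for Sprr3, 3.33 (2.23 to 4.32) for Sprr2d, 1.52 (1.41 to 1.63) for Sprr1a, 4.47 (3.71 to 5.22) for Cnfn and 0.99 (0.75 to 1.22) for Flg. For Ivl it was 0.38 (−0.05 to 0.78) and for Crnn 0.14 (−0.31 to 0.55), so both intervals then included 0. The keratins Krt13 and Krt6a were higher, with log2 ratios of 1.65 and 1.56 (0.44 and 0.44 within cluster 1), whereas for Krt10 it was −0.02 (−1.47 to 1.11). Of 6 squamous keratins with 100 thinned UMIs or more, 3 had an interval above 0 and 0 below. Within cluster 1, it was 2 of 4 above and 1 below. Basal markers were lower as a sum (−1.41) and so were the proliferation genes (−3.93). The 9 intermediate markers were higher as a sum (2.11), chiefly through Psca (3.70, or 2.34 within cluster 1). One by one, 6 of the 9 had an interval above 0 and 0 below, but within cluster 1 it was 3 above and 2 below. The only leukocyte marker above 0 in the 92 cells was Cd68, with 11 UMIs, while Ptprc, Cd3e, Cd79a, Lyz2 and Laptm5 had 0. The median depth was 4232 UMIs in the Sprr2f cells and 3438 in the others before thinning.

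**Figure D4:**
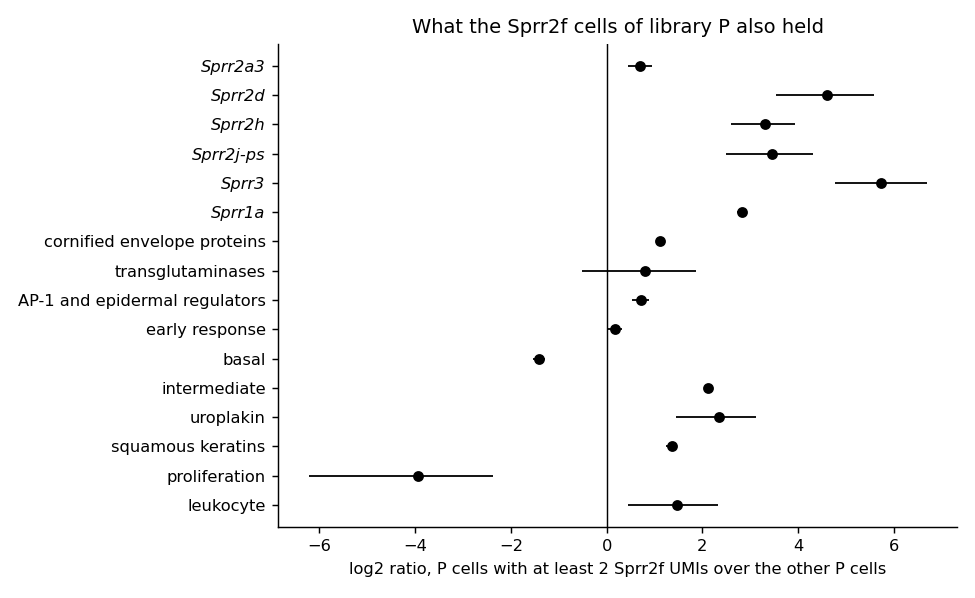
Log2 ratio, with exact intervals, of other Sprr genes and of the summed genes of each list in the 92 cells of P with at least 2 Sprr2f UMIs over the other 6546 cells, all thinned to 2100 UMIs. Sprr3 (5.74) and Sprr2d (4.61), with 18 and 12 UMIs in the 92 cells, lie far to the right. Sprr2a3 (0.70) lies near the middle, and basal (−1.41) and proliferation genes (−3.93) lie to the left.

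The partners of the Sprr proteins changed unevenly between conditions. Of 17 genes for other cornified envelope proteins 13 had 100 UMIs or more. Of these, 6 were at least 2-fold higher in P and 1 in D, beside 4.73% and 13.5% of all 10719 genes tested. The median over the 13 was −0.01 on the log2 scale, beside 0.41 for all genes. Those higher in P were Flg (5651 and 1 UMIs, a log2 ratio of −12.07 with an interval of −17.37 to −9.59), Crnn (3019 and 11, −7.71), Cnfn (154 and 2, −5.87 with an interval of −8.93 to −4.00), Rptn (138 and 10, −3.39), Csta1 (12098 and 1416, −2.70), a cystatin, and Tchh (1073 and 352, −1.21), trichohyalin. Sbsn, suprabasin, was the 1 higher in D (2.002). For the classical envelope proteins the log2 ratio was smaller, 0.73 for Ivl, 0.60 for Ppl (periplakin), 0.16 for Lor and −0.01 for Evpl (envoplakin), or 0.31, 0.18, −0.26 and −0.43 relative to the median gene, so the direction of Lor turned with the scaling. Of the transglutaminases, which form the cross-links, Tgm1 of keratinocytes had a log2 ratio of −2.59 (325 and 41 UMIs) and Tgm5 of 1.88, whereas that of Tgm2 was 0.51, or 0.09 relative to the median gene, and Tgm3 had no UMI.

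Among squamous keratins, Krt13 and Krt6a were higher in P with log2 ratios of −4.16 and −1.19, and Krt4, Krt16 and Krt1 were higher in D (1.96, 1.78 and 1.62). Of 10 genes for AP-1 subunits and epidermal regulators, 9 had 100 UMIs or more. Of the 9, Klf4, a factor of the skin barrier, was at least 2-fold higher in P (−1.26) and Grhl1 in D (1.08). Over all genes, 4.73% passed this limit in P and 13.5% in D, so 1 of 9 in D was near that share. Fosl1, the Fos-related subunit of AP-1, was counted with 54 UMIs in P and with 32 in D. The 14 early response genes, which include Fos and Jun and rise during tissue dissociation, summed to 1602 CPM in P and 3381 in D. In D 8 of the 14 passed the 2-fold limit and in P 0, beside the 13.5% and 4.73% of all genes. The median log2 ratio of the 14 was 1.30, or 0.88 relative to the median gene. What part these early response genes had in the level of Sprr1a was not tested. Within the libraries, cells with at least 5 Sprr1a UMIs had 1752 CPM of these genes beside 1547 in the other cells of P, and the order was the opposite in D, with 2459 beside 3542.

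**Figure D5:**
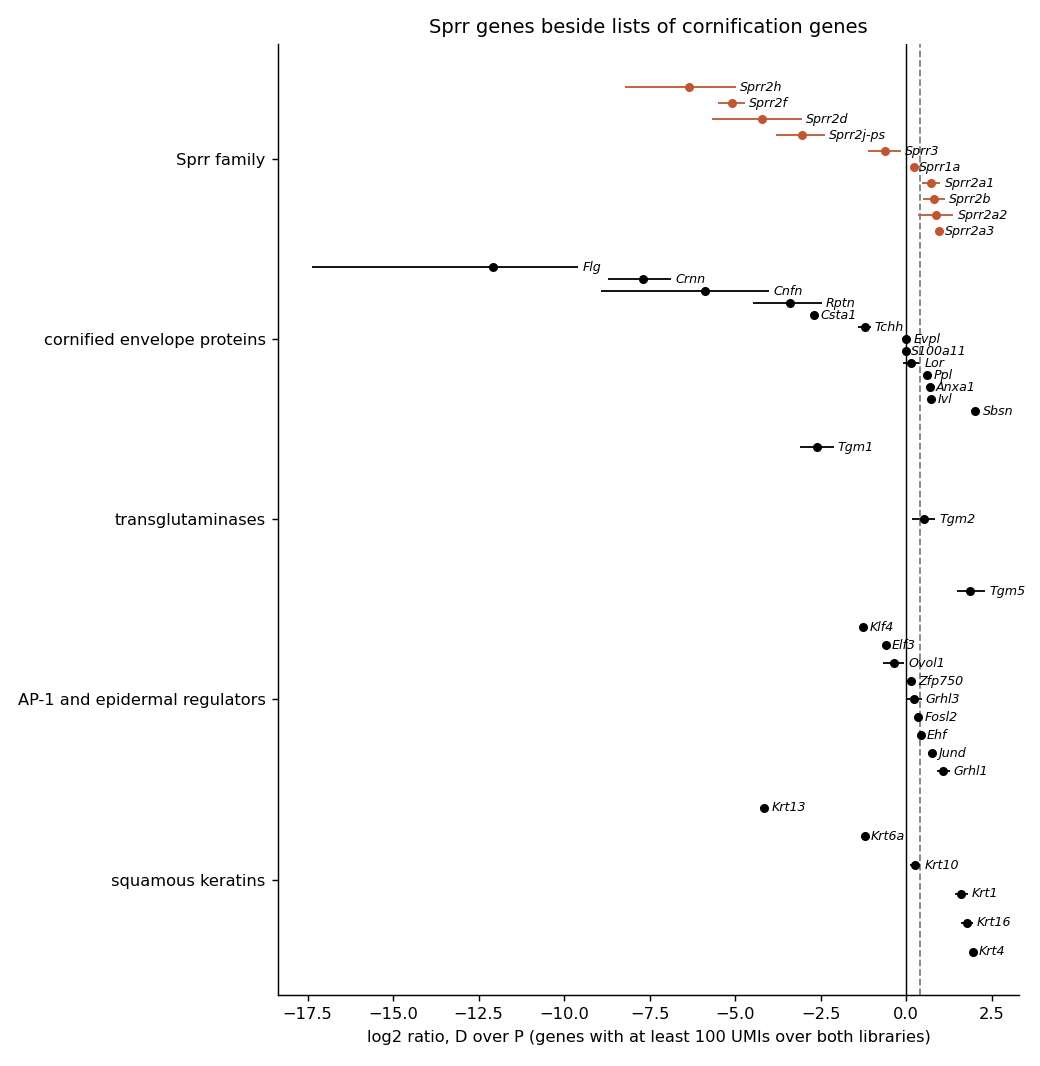
Log2 ratio of D over P, with exact intervals, of each gene with at least 100 UMIs in the Sprr family (orange) and in 4 lists of genes of cornification; the solid line marks 0 and the dashed line the median gene. Sprr2d, Sprr2f, Sprr2h and Sprr2j-ps lie left of 0 with Flg, Crnn, Cnfn, Rptn, Csta1, Tgm1 and Krt13, whereas Sprr1a and the Sprr2a genes lie within 1 unit of it.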

How the data were processed

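The authors deposited, for each library, a matrix of UMI counts per gene and barcode made with Cell Ranger 3.0.2 (bcl2fastq 2.19.0) on mm10, and these counts were used as deposited. Kept cells had over 800 genes and at most 12% mt- UMIs. No doublet caller was run, and leaving out the 5% of cells with most UMIs was tried instead. Levels are CPM, UMIs scaled to 1000000 kept UMIs of a library, with exact Poisson intervals, ratios have exact conditional binomial intervals and shares Clopper-Pearson intervals (scipy 1.17.1), all at 95% and for counting error only. A gene was called at a ratio of 2 or more with at least 100 UMIs over both libraries, and a count of 0 was set to a floor of 3 counts. Shares, spread and likeness used cells thinned to 2100 UMIs (180 cells of P and 479 of D left out). Likeness was Pearson's r of log values for genes in at least 5% of cells. The 3 genes at each end were taken from outside the Sprr family. Clusters were made in Seurat 5.3.0 (R 4.3.3) without Sprr genes. Scripts were tested on simulated data. The members and lists were chosen with earlier results of these data known. Scaling, cell filter, thinning, count limit and cluster resolution were varied.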

Additional observations from a re-analysis of the deposited data

Results flagged for a closer look

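The members were also found in barcodes that the cell filter left out. Together they had 1142 UMIs in the 1376 barcodes left out of P, 573 per 1000000 non-mitochondrial UMIs (541 to 608), and 876 UMIs in the 2079 left out of D, 423 on the same scale (395 to 452), beside 846 and 874 in kept cells. Sprr2f alone was 141 on that scale in the barcodes left out of P (125 to 159) and 102 in kept cells, and Sprr1b had 0 UMIs there too.

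In uroplakin-positive cells against the others, Sprr2f had a log2 ratio of 1.70 in P (1.55 to 1.84) and −1.34 in D (−2.15 to −0.54), opposite directions whose difference was not tested. The value of D rested on the single cell with 27 of its 57 UMIs, which had 5900 UMIs in all and 0 uroplakin UMIs. Without the cell with most Sprr2f in each library, a comparison chosen after seeing the data, the ratio was 1.98 in D (27 UMIs against 3) and 1.27 in P. Of those 27 UMIs 17 came from 1 other cell, so the direction in D turned on 2 cells, which an interval for counting error does not cover.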

How the results depend on the processing

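No paired analysis was possible because each group holds 1 library. Of 32 alternatives for the ratios of D over P, 25 stayed within the interval and 2 reversed Sprr1a, which was −0.11 without mitochondrial and ribosomal protein genes and −0.20 under median-ratio scaling. Sprr1a was 0.059 with a stricter cell filter and 0.28 without the 5% of cells with most UMIs, Sprr2d −2.99 with a looser filter, and Sprr2f −5.52 under median-ratio scaling and −5.96 without its highest cell. With no minimum, 7 Sprr genes in place of 4 were at least 2-fold higher in P, and 5 under median-ratio scaling, Sprr3 among them. The share of all genes was not counted under either setting. Shares without thinning were 36.1% and 58.9% for Sprr1a in P and D, 3.55% and 0.306% for Sprr2f, 0.543% and 0.776% for Sprr3, and 0.763% for Sprr2d in P. Thinned to 1050 UMIs they were 22.6% and 34.7% for Sprr1a, 2.02% for Sprr2f in P, 0.204% for Sprr3 in D and 0 for Sprr2d in D. Shares with at least 2 UMIs were 19.0% and 28.2% for Sprr1a, 1.39% for Sprr2f in P, 0.0753% and 0.0906% for Sprr3, and 0.136% and 0 for Sprr2d. Without the 5% of cells with most UMIs, Sprr1a was in 28.2% of cells of P. With at least 2 uroplakin UMIs as the limit, the log2 ratio of positive over other cells was 2.192 in P and 1.63 in D for Sprr1a, 3.71 for Sprr2d in P and 2.96 for Sprr2f in P. With 1 proliferation gene as the limit, cycling over other cells was −0.88 in P and 0.0018 in D for Sprr1a, −1.33 for Sprr2f in P and 0.52 for Sprr2d in P, the second and the last being reversed. At resolution 0.4, the highest cluster over other cells was 3.92 in P and 2.07 in D for Sprr1a. Without the member's highest cell, the uroplakin ratio was 1.06 for Sprr2d in P, 1.27 for Sprr2f in P and 1.98, reversed, for Sprr2f in D. Leaving out a single cell or the shared barcodes, or comparing Sprr2f cells within cluster 1, was chosen after seeing the data. The cause of these shifts was not tested. With 1 library per condition, no ratio has a replicate check, and at this depth Sprr2d and Sprr3 in D rest on 6 and 55 UMIs.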
